A study of Mus musculus with 2 samples.

Results

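The DNA replication machinery of the embryonic mouse liver was described through 43 genes: the subunits that mark and license replication origins, the replicative helicase, the replicative polymerases, the sliding clamp and its loader, the enzymes that finish the lagging strand, the single-strand binding protein RPA and ribonucleotide reductase. Members were taken from a list of gene symbols, with no threshold on their values, and 43 of 43 were found among 42462 mouse gene rows with a symbol. The series holds 1 group, liver of B6NCrl mouse embryos aged 14.5 days, in 2 biological replicates with 1 library each. The RNA was total RNA above 200 nucleotides, used at 10 ng, with ERCC spike-in RNAs added and with no treatment or genetic change given in the labels. Each replicate is labelled as 1 liver, collected on 17 July (replicate 1) or 15 July (replicate 2) of the same year, and its sex is labelled as a pool of male and female. Both replicates also carry the same donor label, so the labels do not settle how far the spread between these libraries is a spread between animals. The replicates are called livers below only because each is labelled as 1 liver. No other group was sequenced, so each gene is described by its value in replicate 1 and then in replicate 2, and there is no p-value.

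Replication starts at origins that the origin recognition complex (ORC) binds, where Cdc6 and Cdt1 load the MCM helicase ring before S phase. Cdc45 and the GINS complex then join MCM to form the active helicase, polymerase alpha-primase lays primers, and polymerases epsilon and delta copy the leading and the lagging strand with the PCNA clamp. At this age the liver is the main blood-forming organ of the mouse embryo as well as the growing liver itself, and both its blood precursors and its hepatoblasts divide.

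The libraries held 39998450 estimated reads in replicate 1 and 28848861 in replicate 2, of which 37059776 and 26908926 lay on mouse genes. The labelled tissue was checked against markers: 8 of 8 hepatoblast genes, which include Alb and Afp, stood at 1 TPM or more in both libraries and summed to 17253 and 18273 TPM. Erythroid markers summed to 359524 TPM in replicate 1 and 345616 TPM in replicate 2, and globin genes alone took 39.9% and 38.1% of mouse TPM. Of 10 markers of other organs 7 were at 0 in both libraries, and 1, the atrial myosin gene Myl7, reached 1 TPM, at 5.41 and 6.17 TPM. In whole tissue, fewer cells of a type and less RNA of a gene per cell cannot be told apart.

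Promoter sequences of the members are shown because E2F transcription factors are textbook regulators of replication genes. RefSeq windows on GRCm38.p6, running from 250 bases before to 50 bases after a start site, were found for 35 of 43 members, as 43 windows; Pole, Rfc2, Gins4, Gmnn, Mcm4, Prim2, Gins1 and Gins2 had no entry. Mcm6 had the most matches to 4 E2F motifs; Mcm7, Mcm3, Mcm5, Lig1 and Rfc3 were level behind it, and the 2 of these with the highest expression, Mcm7 and Mcm3, are shown with Mcm6. The windows are printed on the gene's own strand, 5′ to 3′. Capitals mark matches to TTTCGCGC, TTTGGCGC, TTTCCCGC or TTTGGCGG on either strand, so a motif on the opposite strand appears as its reverse complement. Mcm6, chr1:128359656-128359955, minus strand, held 3 matches. Mcm7, chr5:138171834-138172133, minus strand, held 2, as did Mcm3, chr1:20820263-20820562, minus strand.
Mcm6: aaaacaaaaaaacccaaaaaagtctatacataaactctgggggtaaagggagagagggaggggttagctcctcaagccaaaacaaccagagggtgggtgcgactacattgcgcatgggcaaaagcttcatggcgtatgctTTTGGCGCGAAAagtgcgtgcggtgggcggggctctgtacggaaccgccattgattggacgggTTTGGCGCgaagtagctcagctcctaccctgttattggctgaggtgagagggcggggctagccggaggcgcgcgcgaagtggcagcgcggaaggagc
Mcm7: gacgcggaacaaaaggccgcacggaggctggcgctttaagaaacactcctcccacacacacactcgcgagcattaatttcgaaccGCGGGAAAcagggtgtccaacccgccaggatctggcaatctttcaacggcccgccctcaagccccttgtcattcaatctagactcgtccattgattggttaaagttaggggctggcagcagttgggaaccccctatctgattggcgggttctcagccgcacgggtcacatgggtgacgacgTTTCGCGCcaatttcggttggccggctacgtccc
Mcm3: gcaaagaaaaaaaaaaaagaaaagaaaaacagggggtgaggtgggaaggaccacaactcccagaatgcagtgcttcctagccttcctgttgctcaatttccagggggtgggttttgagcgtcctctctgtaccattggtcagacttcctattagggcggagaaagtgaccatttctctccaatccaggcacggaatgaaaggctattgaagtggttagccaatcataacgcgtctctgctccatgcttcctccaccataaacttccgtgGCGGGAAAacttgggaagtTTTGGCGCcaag
In Mcm6 the first run of capitals is 2 overlapping matches, TTTGGCGC on the gene's strand from base -110 and TTTCGCGC on the opposite strand from base -106, counted from the start site, and the other match began at -47. Mcm5 held the same pair of overlapping motifs at -153 and -149. In Mcm7 the matches lay at -165 and 17, and in Mcm3 at 20 and 39, so those of Mcm3 were both downstream of the start.

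Any of the 4 E2F motifs occurred in 18 of 43 member windows, or 41.9%, against 1 of 28 windows (3.57%) of a list of mitosis genes and 2.37% of all 32851 windows, which include both sets. Each motif was more frequent among the members than among all windows: TTTCGCGC in 14% against 0.323%, TTTGGCGC in 14% against 0.514%, TTTCCCGC in 18.6% against 1.07%, and TTTGGCGG in 9.3% against 0.56%. The 18 windows belonged to 18 genes and to most roles: Orc1, Orc3, Orc4, Cdc6, Cdt1, Mcm3, Mcm5, Mcm6, Mcm7, Gins3, Pola1, Pola2, Pold1, Pold3, Pole2, Rfc3, Lig1 and Rpa1. Of the 25 matches, 11 lay after the start site, 6 within 100 bases before it and 8 farther upstream. The CCAAT motif, the box bound by NF-Y, was in 58.1% of member windows, 75% of mitosis windows and 37.4% of all windows. The order was different for TTTGAA, the cell cycle homology region of late cell cycle genes, which was in 5 of 43 member windows (11.6%; Pold2, Cdc45, Fen1, Mcm2 and Gins3), 75% of mitosis windows and 17.9% of all windows. A match is a string of letters, no binding was measured here, and overlapping matches of different motifs were each counted.

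**Figure D1:**
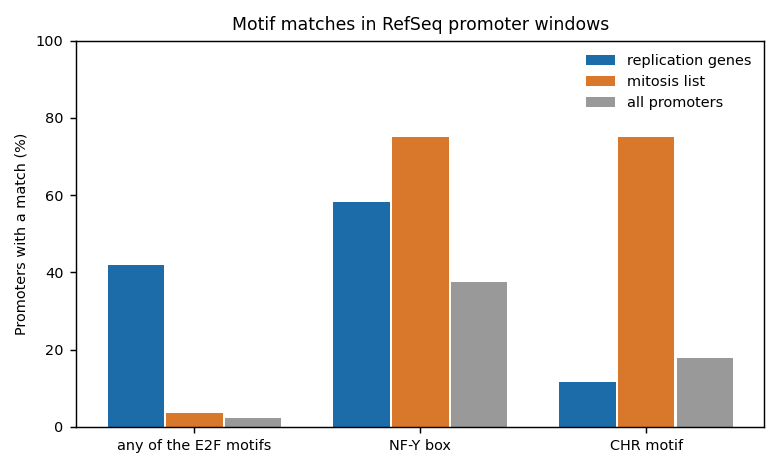
Share of RefSeq promoter windows (vertical axis, percent) with at least 1 match on either strand to any of 4 E2F motifs, to CCAAT or to TTTGAA, for the replication genes, the mitosis list and all windows. E2F motifs were in 41.9% of the replication windows and 3.57% of the mitosis windows, while TTTGAA was in 11.6% and 75%.

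Every replication gene was expressed in both livers. Of the 43 members, 43 stood at 1 TPM or more in both libraries, against 26.7% of all mouse genes with a symbol; TPM is a gene's share of transcripts after division by transcript length, so levels of different genes can be compared. At 10 TPM or more in both were 42 of 43 members against 12.6% of all genes, and at 100 TPM or more 11 of 43 against 2.02%. All 43 members are protein-coding, whereas these shares of all genes include noncoding genes and pseudogenes. The shares among coding genes alone are not given here. The median member stood at 51.8 and 56.4 TPM (mean 54.1 ± 3.28, SD, n = 2), against 9.23 and 10.1 TPM for the median gene at 1 TPM or more in both. Together the members took 0.368% and 0.395% of mouse TPM (mean 0.381% ± 0.0187, SD, n = 2). They ran from Gins3 (ENSMUSG00000031669.9, chromosome 8, 95633453 to 95645060, plus strand), the lowest, to Rrm2 (ENSMUSG00000020649.7, chromosome 12, 24708241 to 24714146, plus strand), the highest, 43.5-fold apart in replicate 1 and 41.5-fold in replicate 2. The depth behind each value was 704 to 27303 estimated reads in replicate 1 and 534 to 19738 in replicate 2, which gives a counting error of 3.77% and 4.33% for the lowest count and 0.605% and 0.712% for the highest.

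**Figure D2:**
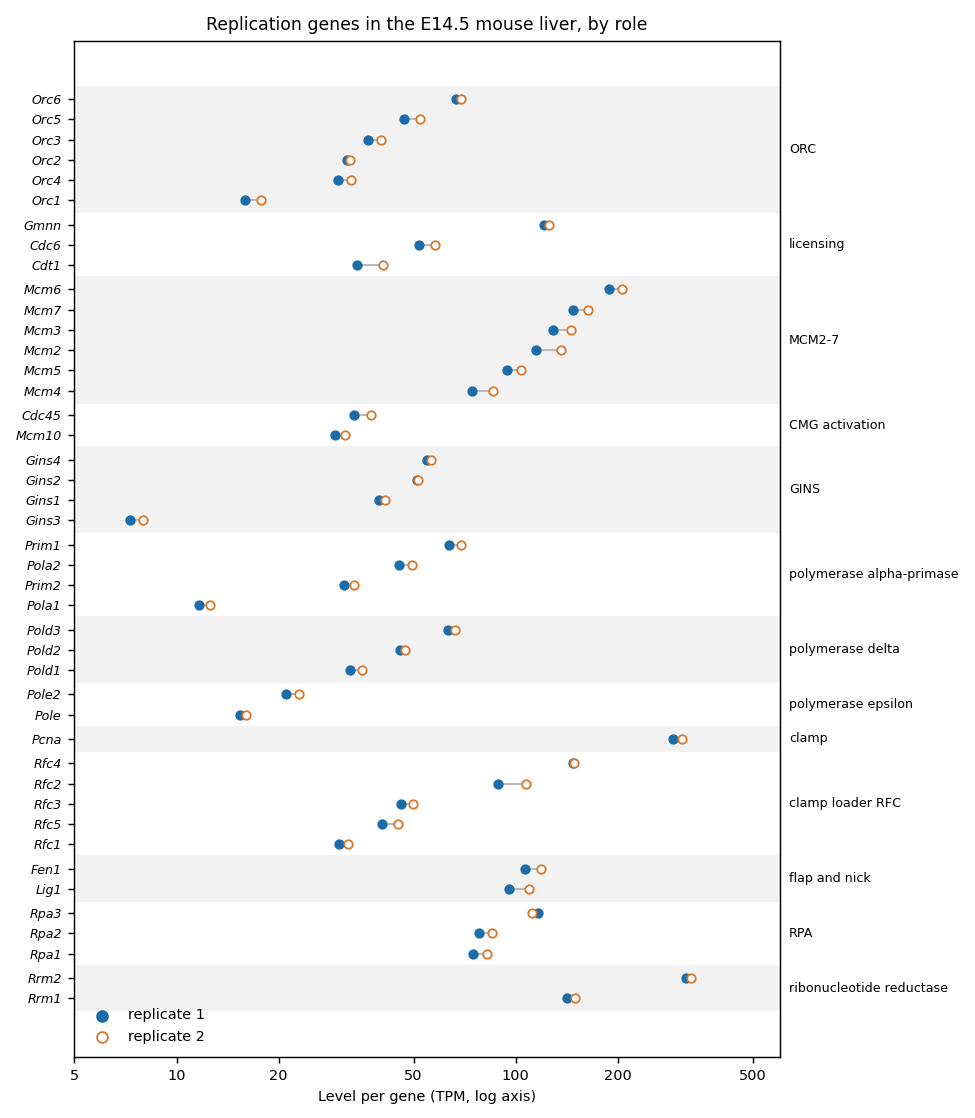
Level of each of the 43 replication genes (horizontal axis, TPM, log scale) in replicate 1 (filled) and replicate 2 (open), grouped by role and ordered by mean within a role. Levels run from Gins3 at 7.28 and 7.94 TPM to Rrm2 at 317 and 329 TPM, and the points of a gene lie close together compared with the distance between most genes.

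The ORC, the platform for helicase loading at origins, had subunits at unequal levels. Orc6, the smallest subunit, was highest at 66.7 and 68.8 TPM, and Orc5 followed at 46.8 and 52.1 TPM. Orc3 stood at 36.7 and 40.1 TPM. Orc2 was at 31.9 and 32.5 TPM and Orc4 at 29.9 and 32.8 TPM, so the order of that pair differed between the livers. Orc1, the ATPase subunit whose protein is known from human cells to be removed and remade with the cell cycle, was lowest at 15.9 and 17.7 TPM, which puts Orc6 4.19-fold and 3.89-fold above it. Of the licensing factors, geminin (Gmnn), the inhibitor that binds Cdt1 once S phase has begun, was at 121 and 125 TPM. The loader ATPase Cdc6 was at 51.8 and 57.8 TPM, and Cdt1 itself at 34.1 and 40.6 TPM. The inhibitor thus exceeded its target by 3.56-fold in replicate 1 and 3.09-fold in replicate 2 as transcripts per length.

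The 6 subunits of the MCM ring, the motor of the replicative helicase, were each above every ORC subunit in both livers: their median was 122 and 141 TPM, against 34.3 and 36.5 TPM for ORC, a ratio of 3.55 and 3.86. Mcm6 (ENSMUSG00000026355.7, chromosome 1, 128331590 to 128359664, minus strand) was highest at 189 and 206 TPM, and Mcm7 followed at 147 and 163 TPM. Mcm3 stood at 129 and 145 TPM and Mcm2 at 115 and 136 TPM, ranges that overlapped between the livers. Mcm5 was at 94.2 and 104 TPM and Mcm4 at 74.2 and 85.7 TPM. The order of the 6 subunits was the same in both livers, and Mcm6 exceeded Mcm4 by 2.54-fold and 2.40-fold, although the ring holds each subunit once. The factors that turn the ring into an active helicase were lower: Cdc45 stood at 33.3 and 37.5 TPM. Mcm10, which acts at helicase activation, was at 29.25 and 31.3 TPM.

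The GINS complex, the other partner of the active helicase, had the widest spread of subunits among the role groups when whole genes were compared. Gins4 was at 54.7 and 56.4 TPM, Gins2 at 51.3 and 51.5 TPM and Gins1 at 39.6 and 41.2 TPM. Gins3, by contrast, was at 7.28 and 7.94 TPM, which leaves Gins4 7.52-fold and 7.10-fold above it; Gins3 was also the only member under 10 TPM.

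The polymerases were below the helicase ring. In polymerase alpha-primase the small primase subunit Prim1, which makes the RNA primer, was at 63.8 and 69.0 TPM, and its partner Prim2 at 31.1 and 33.4 TPM. The accessory subunit Pola2 was at 45.2 and 49.3 TPM, while the catalytic subunit Pola1 was at 11.7 and 12.6 TPM, so Prim1 exceeded Pola1 by 5.46-fold and 5.49-fold. In polymerase delta, the lagging-strand enzyme, Pold3 was at 63.1 and 66.3 TPM and Pold2 at 45.5 and 47.1 TPM. The catalytic subunit Pold1 was the lowest delta member, at 32.5 and 35.2 TPM. In polymerase epsilon, the leading-strand enzyme, the catalytic subunit Pole was at 15.4 and 16.0 TPM and Pole2 at 21.04 and 22.96 TPM. In each of the 3 polymerases, then, the catalytic subunit of the DNA polymerase was the lowest of the members measured, in both livers. This does not hold for delta once Pold4, a small subunit outside the members, is counted, as it stood at 9.73 and 9.50 TPM. The small epsilon subunits Pole3 and Pole4, also outside the members, were above Pole.

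Pcna (ENSMUSG00000027342.10, chromosome 2, 132249162 to 132253314, minus strand), the ring that tethers polymerases to DNA, was at 289.9 and 308 TPM, 18.8-fold and 19.3-fold above Pole. Its loader, replication factor C, was uneven. Rfc4 was at 148 and 148 TPM, Rfc2 at 88.6 and 107 TPM and Rfc3 at 45.9 and 49.7 TPM. Rfc5 was at 40.2 and 44.9 TPM. Rfc1, the large subunit that sets this loader apart from its relatives, was lowest at 30.1 and 32.1 TPM. The flap nuclease Fen1 and the nick-sealing ligase Lig1, which bind PCNA and complete Okazaki fragments, were close to each other: Fen1 was at 106.5 and 119 TPM, Lig1 at 95.8 and 109 TPM, and their ranges overlapped.

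RPA, the trimer that coats single-stranded DNA, was the most even of the groups with 3 members when whole genes were compared. Rpa3 was at 117 and 112 TPM, Rpa2 at 78.1 and 85.2 TPM and Rpa1 at 75.02 and 82.31 TPM, with the ranges of Rpa1 and Rpa2 overlapping. Ribonucleotide reductase, which makes deoxynucleotides from ribonucleotides, held the top member: the small subunit Rrm2, whose level is known to follow S phase, was at 317 and 329 TPM. The large subunit Rrm1 was at 141 and 149.7 TPM, so Rrm2 was 2.24-fold and 2.20-fold above it.

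Differences between subunits were mostly larger than those between livers. Within the role groups, 4 of 30 pairs of neighbours in order of level had overlapping ranges: Orc2 and Orc4, Mcm3 and Mcm2, Fen1 and Lig1, and Rpa2 and Rpa1. In 7 of 12 groups with several members, the highest member was at least 2-fold above the lowest in both livers. Across all 43 members in 1 order, 29 of 42 neighbouring pairs overlapped, and no member changed its rank by more than 2 places between the libraries. These comparisons have no test, since each range is 2 values.

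Gene TPM is the sum over a gene's annotated transcripts, in which a short transcript weighs as much per length as a full-length one. Of the 43 members, 9 had 1 annotated transcript and 34 had several. In 32 of those 34 the transcript with the highest share of the gene's TPM was the same in both livers, the exceptions being Orc3 and Pole. Transcripts annotated as retained introns held at least 25% of gene TPM in both libraries in 7 of the 42 members that averaged at least 10 TPM (16.7%), against 5.33% of protein-coding genes at that level. Protein-coding transcripts held at least 90% in both in 26 of the 42 (61.9%), against 70.6%.

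Gins2 showed this most clearly. Its short transcript Gins2-204, of 511 nucleotides and annotated as a retained intron, held 68.1% and 67.6% of gene TPM, whereas the coding Gins2-201, of 3900 nucleotides, held 22.3% and 25.5%. In reads the order was turned round: Gins2-201 had 1819 and 1452 estimated reads, Gins2-204 had 601 and 417. The level of the coding transcript was 11.4 and 13.1 TPM, below Gins1. Rpa1 was like it, with the retained-intron transcript Rpa1-205 at 48.8% and 51.0% of TPM and the coding Rpa1-201 at 36.5 and 38.4 TPM. Mcm3 had a retained-intron transcript of 716 nucleotides at 29.75% and 31.6%, while its coding Mcm3-201 stood at 89.2 and 97.8 TPM. Pole, whose full-length transcript Pole-201 has 7163 nucleotides, had that transcript at 4.53 and 4.72 TPM. Orc4-201 stood at 5.19 and 5.42 TPM, a fraction of a gene level that was 5.75-fold and 6.05-fold higher. Lig1-201 stood at 20.6 and 22.5 TPM. In Pold3 an unnamed transcript of 186 nucleotides, with 91 and 74 estimated reads, held 39.6% and 44.0% of gene TPM. The coding Pold3-201 stood at 31.3 and 33.8 TPM, near Pold2-201 at 29.95 and 30.5 TPM. Among leading transcripts that were the same in both livers, that of Cdc45 differed most, with Cdc45-201 at 69.2% and 57.8% and Cdc45-202, also coding, at 30.8% and 42.2%.

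Taking for each member only the transcript with the most reads, a choice made after the values were seen, the median member stood at 38.5 and 40.6 TPM. The subunit spread then widened in ORC to 12.2-fold and 11.8-fold, in polymerase epsilon to 4.64-fold and 4.86-fold, in the clamp loader to 14.3-fold and 12.1-fold and in RPA to 3.19-fold and 2.91-fold. The lowest clamp loader value was that of Rfc1, whose chosen transcript, unnamed in the annotation, held 45.6% and 51.2% of its reads at 7.25 and 8.83 TPM. The coding Rfc1-201, of similar length, added 5.62 and 5.13 TPM that this measure leaves out. In ORC the lowest, Orc4-201, held 49.1% and 49.0% of the reads of Orc4. In 9 of 12 groups, in place of 7, the highest member was then at least 2-fold above the lowest in both livers. Fen1 and Lig1, close to each other as whole genes, were 1.87-fold and 2.04-fold apart by these transcripts. The median of that pair was 29.6 and 34.2 TPM, against 101 and 114 TPM for the whole genes. Fen1 was split over coding transcripts of similar length, 2100, 2341 and 2152 nucleotides. The chosen one, of 2100 nucleotides, held 36.2% and 38.6% of gene TPM, so for Fen1 this measure leaves out coding transcripts. It also does so for Lig1, where Lig1-201 held 21.5% and 20.6% and the shorter coding Lig1-206 held 40.5% and 40.9%. Orc3 was likewise split between the coding Orc3-201, at 42.5% and 51.3%, and Orc3-202, at 43.9% and 34.3%. In the MCM ring Mcm6 was again highest and Mcm4 lowest, 2.5-fold and 2.36-fold apart, but Mcm2, which has 1 transcript, now stood above Mcm7, whose main transcript was at 105 and 118 TPM. The low level of Gins3, which has 1 transcript, was the same on both measures, and GINS kept its spread of 7.52-fold and 7.10-fold. In the clamp loader Rfc2 stood above Rfc4-201 in replicate 2, at 107.09 against 101.84 TPM, but below it in replicate 1. The evenness of RPA and the closeness of Fen1 and Lig1 thus depend on how transcripts are summed. So does the order of subunits within ORC, GINS and the MCM ring, and in replicate 2 within the clamp loader.

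**Figure D3:**
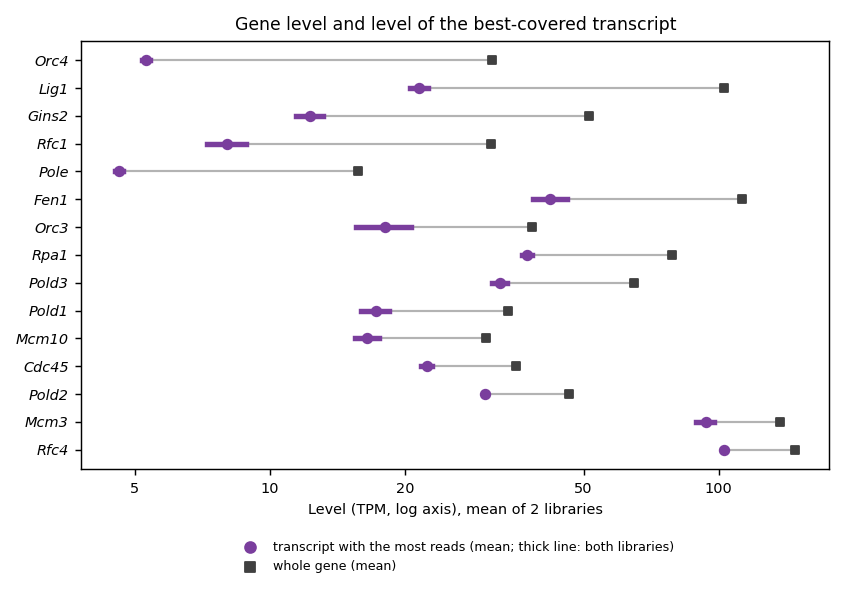
Mean level (horizontal axis, TPM, log scale) of the whole gene (square) and of its transcript with the most reads (circle, with a thick line between the libraries) for the 15 members in which the gene stood at least 1.4-fold above that transcript in both. Orc4 has the longest line, 5.75-fold in replicate 1 and 6.05-fold in replicate 2.

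The livers differed little in these genes, and the direction of the difference depended on the scale. On deposited TPM the median log2 ratio of the members, replicate 1 over replicate 2, was -0.11, beside -0.09 over the 5556 genes that averaged at least 10 TPM. Of the 42 members at that level, 41 were lower in replicate 1, against 76.3% of all genes; Rpa3 was the exception. On counts scaled by TMM, a normalisation to the bulk of the genes, the members' median was -0.01 beside 0.02, and 21 of 42 were lower in replicate 1, against 44.3%. Members relative to all genes were thus at -0.02 or -0.03 on both scales. No member was at least 25% higher in replicate 1 (0 of 42, against 1.44% of genes), none was at least 20% lower (0 of 42, against 5.11%), and none differed 2-fold (0 of 42, against 0.252%). These are descriptions of 1 pair of libraries.

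The member farthest from 0 on TPM was Rfc2 (ENSMUSG00000023104.6, chromosome 5, 134581366 to 134601805, plus strand), with a log2 ratio of -0.27 on TPM and -0.15 on TMM-scaled counts. Mcm2 (ENSMUSG00000002870.7, chromosome 6, 88883474 to 88898780, minus strand) and Cdt1 followed, both at -0.24 on TPM, and stood at -0.13 and -0.13 on TMM-scaled counts. At the other end Rpa3 (ENSMUSG00000012483.4, chromosome 6, 8255936 to 8259173, minus strand) had 0.06 on TPM and 0.17 on TMM-scaled counts, where it was the member farthest from 0. In the MCM ring 6 of 6 subunits were below 0 on TPM, where 76.3% of all genes were, and 6 of 6 on TMM-scaled counts, where 44.3% were, with medians of -0.16 and -0.03. Ribonucleotide reductase had a median of -0.07 on TPM and 0.05 on TMM-scaled counts. Neutrophil and megakaryocyte markers moved more between the same libraries. Of the neutrophil markers 8 of 8 were higher in replicate 1, with summed levels of 2751 and 1979 TPM and a median log2 ratio of 0.40, and 6 of 6 megakaryocyte markers were lower, at 550 and 691 TPM and -0.36. Erythroid markers, whose sums are given above, had a median log2 ratio of 0.04 on TPM. Macrophage markers summed to 180.3 and 185 TPM with a median of -0.10, so on TPM neither list moved more than the members by its median. On TMM-scaled counts the erythroid median was 0.15 and the macrophage median 0.0039, beside -0.0079 for the members. The erythroid markers thus moved more than the members on that scale, where the neutrophil and megakaryocyte medians were 0.52 and -0.25. The part of these cell types in the members' ratios was not tested.

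**Figure D4:**
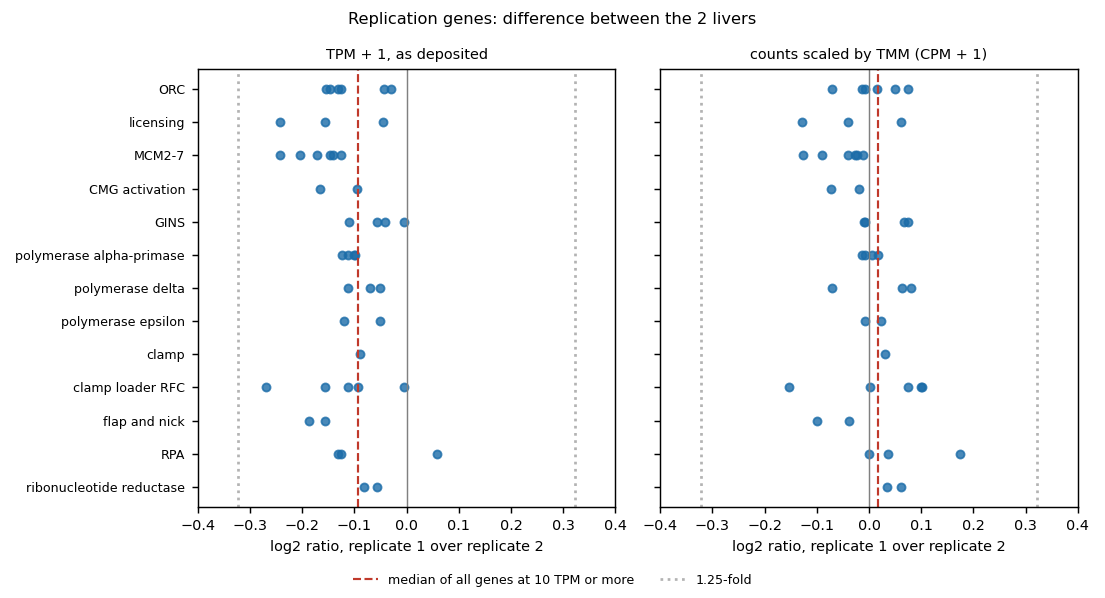
Log2 ratio of replicate 1 over replicate 2 (horizontal axis) of each replication gene, by role, on deposited TPM plus 1 (left) and on TMM-scaled CPM plus 1 (right), with the median of all genes at 10 TPM or more as a dashed line and dotted lines at 25% higher and 20% lower. On the left 41 of 42 members at 10 TPM or more lie below 0, on the right 21 of 42, and no point reaches a dotted line.

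Reads shared between genes limit some of these values. Exons of 16 members overlapped those of another annotated gene, on the opposite strand in 13 and on the same strand in 4, and no source used here says if the counting used strand. Gins2 shared 2758 bases with Gse1, which stood at 5.01 and 6.19 TPM, and Fen1 shared 1909 with the antisense gene Gm10143, at 1.55 and 1.71 TPM. Fen1 also shared 130 bases with Tmem258 on the opposite strand, which stood above Fen1 itself, at 331 and 328 TPM. Orc2 shared 1150 with Nif3l1, at 13.0 and 14.3 TPM. Orc6 overlapped the more abundant Vps35, at 79.8 and 86.7 TPM, by 171 bases. Estimated reads of Gins2 (2566.56 and 1947.65) and of Gse1 (1253.44 and 1106.35) add to whole numbers in each library. Those of Fen1 and Gm10143 do so too, so the levels in these pairs depend on how shared reads were split. By contrast, Orc6 and Vps35 each held a whole number of reads in both libraries, as did Rfc2 and Lat2. The use of strand was not tested. Mcm7 carries the microRNA genes Mir25 and Mir93 on its own strand, over 84 and 88 bases, and both rows were at 0. With RNA above 200 nucleotides, these rows do not measure the microRNAs. The deposited posterior SD of the estimated count was above 1% of the count in 0 of 43 members.

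Genes that work around the fork spread over a wide range. The small polymerase subunits outside the members were Pole3 at 44.5 and 49.0 TPM, Pole4 at 43.02 and 45.64 TPM and Pold4 at 9.73 and 9.50 TPM. Of 12 origin firing genes, 10 stood at 10 TPM or more in both, with a median of 26.4 and 30.1 TPM. Cyclin A2 (Ccna2), which drives S phase with Cdk2, led at 240.1 and 275 TPM, followed by the cyclin E genes Ccne2 at 74.8 and 80.4 TPM and Ccne1 at 71.9 and 77.9 TPM. Ticrr, which helps load Cdc45, was lowest at 3.46 and 3.73 TPM. All 12 were lower in replicate 1 on TPM, as were 76.3% of all genes that averaged at least 10 TPM, and their median log2 ratio was -0.16 there and -0.02 on TMM-scaled counts.

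Licensing partners had a median of 23.6 and 25.2 TPM over 9 genes. Highest were 3 parts of the ubiquitin ligase that removes Cdt1 in S phase, with Ddb1 at 98.3 and 111 TPM, Rbx1 at 92.2 and 89.1 TPM and Cul4a at 57.2 and 69.4 TPM. The geminin relative Gmnc, known from multiciliated cells, was at 0 in both libraries. Fork protection genes had a median of 18.0 and 18.9 TPM over 11 genes, with Tipin, a fork-stabilising partner of Timeless, far ahead at 162 and 167 TPM. Clspn, the mediator of Chk1 activation, was at 31.2 and 38.9 TPM and Chtf8, of an alternative clamp loader, at 26.3 and 30.2 TPM. The checkpoint kinase Atr was lowest at 2.86 and 3.48 TPM.

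Okazaki maturation and topology genes had a median of 41.8 and 47.6 TPM over 9 genes. Topoisomerase Top2a, which also counts among the mitosis genes, was at 162 and 177 TPM. The ribonuclease H2 subunits Rnaseh2a and Rnaseh2c followed, at 86.9 and 102 TPM and at 97.5 and 87.5 TPM, while Lig3, the other ligase, was at 6.80 and 8.63 TPM. Chromatin assembly genes were near the members, with a median of 47.1 and 49.9 TPM and 10 of 10 at 10 TPM or more. The histone-binding Rbbp4 was at 193 and 200.2 TPM, the FACT subunit Ssrp1 at 130 and 149 TPM and the histone chaperone Asf1b at 106 and 114 TPM, with Chaf1a lowest at 11.8 and 15.3 TPM.

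The nucleotide supply list had the highest median of the lists around the fork, 96.5 and 107 TPM over 10 genes. Thymidylate synthase (Tyms) was at 177 and 169 TPM, Nme1 at 153 and 142 TPM and thymidylate kinase (Dtymk) at 121 and 123 TPM. Rrm2b, the reductase subunit that cells use outside S phase, was lowest at 1.66 and 1.42 TPM, in contrast with Rrm2. The list of translesion and specialist polymerases and their partners was low, with a median of 4.79 and 5.15 TPM and 3 of 14 at 10 TPM or more in both. The repair polymerase Polb was at 18.0 and 21.2 TPM, Mad2l2 at 14.5 and 15.7 TPM and Rev1 at 10.5 and 11.5 TPM, with Poln at 0.21 and 0.21 TPM. MCM relatives outside the ring were low as well. Mcm8 was at 5.71 and 6.17 TPM, Mcm9 at 1.69 and 2.09 TPM and Mcmdc2 at 0.68 and 0.69 TPM. Listed with them was Mcmbp, an MCM-binding protein that is also among the fork genes, at 18.0 and 18.1 TPM.

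Mitosis genes were expressed at the members' level: over 30 genes the median was 55.0 and 56.2 TPM, with 29 at 10 TPM or more in both. Ube2c, which loads ubiquitin for the anaphase-promoting complex, was at 435 and 461 TPM, Birc5 at 305 and 305 TPM and Cdk1 at 284 and 291 TPM. Bub1 was lowest at 9.41 and 11.9 TPM. The list of G1 genes and cell cycle inhibitors had a median of 13.6 and 15.0 TPM over 14 genes, led by Cdk4 at 404 and 454 TPM, its partner Ccnd3 at 309 and 370 TPM and the inhibitor Cdkn2d at 103 and 108 TPM. The inhibitor gene Cdkn2a was at 0 in both libraries. The lists were not tested against each other or against the members.

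**Figure D5:**
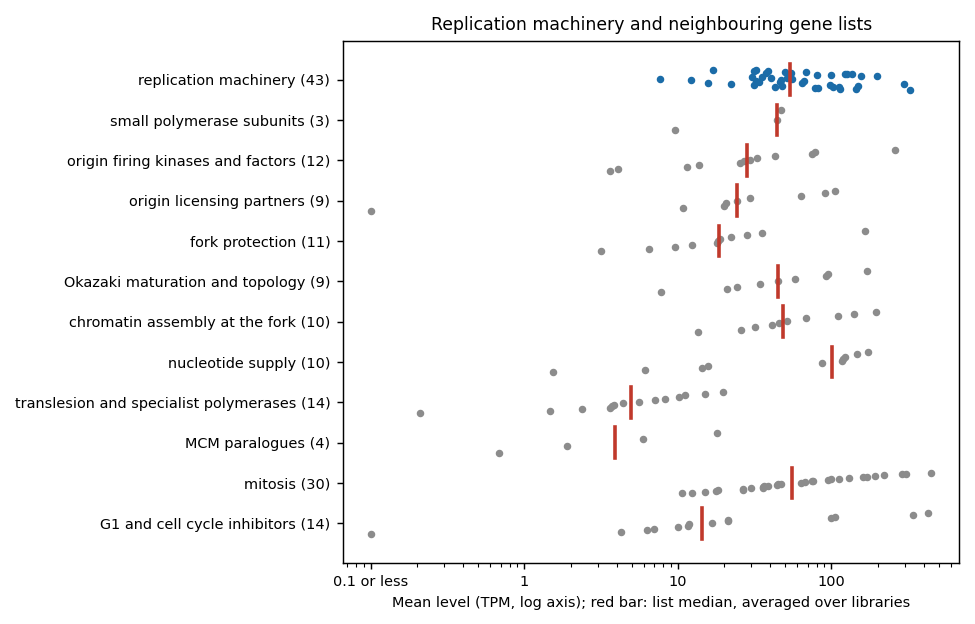
Mean level over the libraries (horizontal axis, TPM, log scale, with values of 0.1 or less at the left edge) of each gene of the replication machinery and of the lists around it, with the number of genes in brackets and a red bar at the list's median averaged over the libraries. The bars stand at 54.1 TPM for the replication genes, 55.6 TPM for mitosis, 4.97 TPM for translesion and specialist polymerases and 3.92 TPM for MCM paralogues. The last list also holds Mcmbp, an MCM-binding protein, as its highest gene.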

How the data were processed

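Total RNA of 2 liver samples was sequenced. The authors deposited a gene and a transcript table for each sample, made on mm10 with GENCODE M4 per the deposited file notes. The aligner, counter and their versions were not given in the sources used here. Per the file headers, the authors deposited expected counts, which are estimated reads and were not normalized. The deposited TPM covers all rows, ERCC rows among them, and the posterior mean TPM stands beside it. FPKM was deposited by the authors as well, per the file headers, and was not used for a result. The percent of a gene's TPM per transcript was deposited too, per the file headers. Effective lengths were 99 nucleotides below the length, so short transcripts have a raised TPM.

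Symbols, biotypes, exons and positions came by unversioned identifier from GENCODE M21, on the same build, and promoters from RefSeq on GRCm38.p6. Spike-ins took 7.35% (replicate 1) and 6.72% (replicate 2) of expected counts and were left out with rows that have no mouse gene identifier. For ratios, a pseudocount of 1 was added to TPM before taking log2 of replicate 1 over replicate 2, so differences of low genes are understated. Counts over ratios used genes that averaged at least 10 TPM. TMM factors were estimated by edgeR 4.0.16 in R 4.3.3 (factors only, no test). The ratio step was tested on simulated data with put-in changes larger than 2-fold. Recovery of differences as small as those of the members was not tested. Counting errors are Poisson errors of the reads, and amplified reads need not be independent molecules. Protein sequences were not used here.

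All members are named, and of each list the 3 highest and the lowest by mean TPM, plus genes in counts of 5 or fewer. The members and lists were chosen with earlier results of these data known. Genes named for their transcripts, overlaps or ratios were picked after their values were seen. Alternatives were pseudocounts of 0.1 and 5, no level filter, TMM-scaled counts, TPM without globin genes, posterior mean TPM and counts in place of TPM. Further ones were detection at 0.1 and 5 TPM, a count of detected members among coding genes only, and each library alone. The transcript with the most reads was added after seeing the data. Python 3.11.15 with numpy 2.4.6, pandas 2.3.3 and matplotlib 3.10.9 was used.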

Additional observations from a re-analysis of the deposited data

How the results depend on the processing

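The members' share of mouse TPM, 0.381% over both libraries, became 0.625% without globin genes, 0.762% as a share of expected counts and 0.312% with the transcript with the most reads of each gene, an alternative chosen after seeing the data. Their median of 54.1 TPM became 88.6 TPM without globin genes and 39.5 TPM with that transcript, and the median over role groups, 47.8 TPM, became 78.3 TPM and 36.3 TPM. The members' median log2 ratio of -0.11 moved to -0.0079 on TMM-scaled counts and lay between -0.12 and -0.08 under the other alternatives. With 1 library left out, the share ran from 0.368% to 0.395%, the median from 51.8 to 56.4 TPM and the median over role groups from 45.9 to 49.7 TPM, with 43 members detected and 7 role groups spread 2-fold either way, against 9 with the transcript with the most reads. The median ratio kept its sign under these alternatives, while single members did not (22 of 43 below 0 on TMM-scaled counts against 42 of 43 on TPM). Removing globins rescales every gene alike, and a single transcript can only lower a gene's TPM. No paired analysis was possible because there is 1 group. Depth limits the lowest member, Gins3, to a counting error of 3.77% and 4.33%.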
